A study of Mus musculus with 31 samples.

Results

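Collagens, laminins and nidogens are the structural chains of the extracellular matrix, and 42 genes encoding them were measured during the differentiation of mouse embryonic stem (ES) cells into embryoid bodies (EBs). A gene was taken when a probe set annotated to it alone carried a collagen alpha chain symbol, a laminin alpha, beta or gamma chain symbol, or Nid1 or Nid2. The probe set with the highest mean signal over all arrays stood for each gene, out of 60 that named these genes. The 42 genes, of 8251 measured in all, comprised 31 collagen chains, 9 laminin chains and 2 nidogens. They were read as 8 fibrillar collagen chains, 16 basement membrane chains (type IV collagens, laminins and nidogens) and 18 other collagen chains.

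Fibrillar collagens assemble into the tension-bearing fibres of connective tissue and are secreted chiefly by fibroblasts and other mesenchymal cells. Type IV collagen and laminin each form a sheet-like network, and nidogens link both networks into the basement membrane that lies under epithelia. In EBs, primitive endoderm cells at the surface are known for laying down such a membrane, whereas fibrillar collagens are known from the mesenchyme that appears later.

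RNA from B6 mouse ES cells and their EBs was hybridised to 31 Affymetrix MgU74Av2 arrays in 5 groups, after 2 rounds of linear amplification. All cells came from cultures kept in fetal calf serum with LIF on mouse embryonic feeder cells, which were depleted on gelatin before use. Gelatin ES cells (6 arrays) had been passaged on gelatin-coated dishes at day 0, and sorted ES cells (6 arrays) had been collected at day 0 by FACS on an Oct4 GFP reporter. EBs were made from gelatin ES cells in non-adherent dishes without LIF and were collected at day 4 (7 arrays), day 8 (6 arrays) and day 14 (6 arrays). The days are those of the labels, and the sampling list in the methods does not hold day 14. The feeders are fibroblasts, so any that remained would bring fibroblast RNA into a sample.

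Values are the authors' model-based probe set signals, on a linear intensity scale. A difference was called when its adjusted p was below 0.05 in a limma fit of log2 signal over all 12422 non-control probe sets and all 31 arrays, with Benjamini-Hochberg adjustment in each of 6 comparisons. Differences are log2 changes with their standard errors (SE), and group means carry their SD. Where arrays of different groups are said not to overlap, this describes the named genes. The share of all probe sets without overlap was not counted. The number of arrays, 6 or 7 in a group, limits the precision. In whole EBs, fewer cells of a type and less RNA per cell cannot be told apart.

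The day 0 labels were checked against 6 markers of undifferentiated cells. Their summed signal ranged between 15070 and 20000 in gelatin ES cells and between 32010 and 40080 in sorted ES cells, and 4 of the 6 were lower in gelatin ES cells. The sum did not fall steadily, at 17340 to 26460 in day 4 EBs and 10850 to 29530 in day 8 EBs. In day 4 EBs 2 of the 6, Nanog and Fbxo15, were higher than in gelatin ES cells and none was lower. Of all probe sets 7.95% were higher and 16.3% lower there. At day 14 the sum lay between 4605 and 11600, and all 6 were lower than in sorted ES cells. Of all probe sets 18.2% were lower in gelatin ES cells and 24.0% in day 14 EBs than in sorted ES cells. Zfp42, a transcription factor of undifferentiated cells, had signals of 550 to 845 in gelatin ES cells and 5058 to 9032 in sorted ES cells. On the 6 day 8 arrays Zfp42 was at 5825, 716, 6845, 635, 7451 and 729.6, so that arrays 2, 4 and 6 were far below the other day 8 arrays. Over all probe sets, day 8 arrays 2 and 4 correlated with arrays 1, 3 and 5 at 0.972 to 0.981, and day 4 arrays 6 and 7 with the other 5 day 4 arrays at 0.947 to 0.978. Values without day 4 arrays 6 and 7, or without day 8 arrays 2 and 4, are given below for some, not all, of the chains and enzymes described over the steps between day 0 and day 14. Day 8 array 6, which correlated with the other day 8 arrays at 0.986 to 0.990, was kept in all of them. The ratio of the 3' to the 5' Gapdh control probe sets, a measure of RNA quality, ranged between 3.48 and 6.85 in gelatin ES cells, 2.76 and 3.09 in sorted ES cells, 2.24 and 4.40 in day 4 EBs, 2.11 and 2.61 in day 8 EBs, and 2.07 and 2.68 in day 14 EBs. The part of RNA quality in the differences below was not tested.

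**Figure D1:**
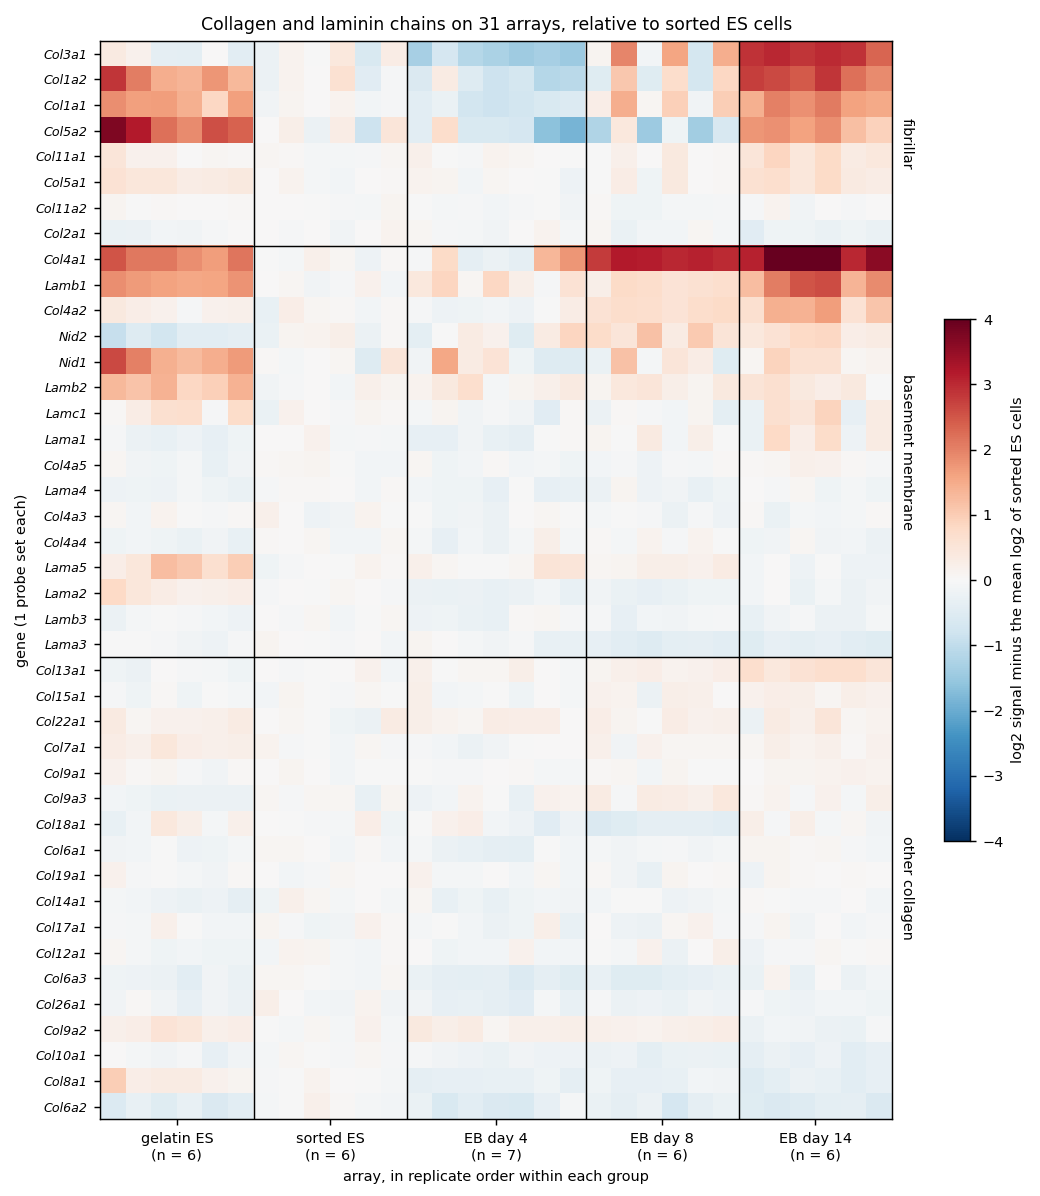
Log2 signal of the 42 chains (rows, by class) on each of the 31 arrays (columns, by group), minus the gene's mean log2 signal in sorted ES cells. Red is higher and blue lower than in sorted ES cells. Strong colour is concentrated in 4 fibrillar chains and in Col4a1, Lamb1 and Nid1, and the 18 other collagen chains are pale throughout.

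RefSeq promoter sequences (GRCm38.p6) were matched by symbol for 28 of the 42 genes. Upstream sequence is shown for Col1a2 and Col3a1, fibrillar chains that moved together after day 4 and apart on gelatin, as the 250 bases before each start. The Col1a2 sequence is chr6:4505368-4505617 and the Col3a1 sequence chr1:45311288-45311537, both on the plus strand. Capitals mark matches to CCAAT or TATAA on either strand. On the complementary strand TATAA reads as TTATA, and both matches in Col3a1 overlap.
Col1a2: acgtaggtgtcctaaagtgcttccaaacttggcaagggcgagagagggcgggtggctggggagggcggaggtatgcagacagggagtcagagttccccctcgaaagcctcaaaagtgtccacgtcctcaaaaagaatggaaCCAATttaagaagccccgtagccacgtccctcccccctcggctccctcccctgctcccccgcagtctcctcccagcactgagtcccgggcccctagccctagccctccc
Col3a1: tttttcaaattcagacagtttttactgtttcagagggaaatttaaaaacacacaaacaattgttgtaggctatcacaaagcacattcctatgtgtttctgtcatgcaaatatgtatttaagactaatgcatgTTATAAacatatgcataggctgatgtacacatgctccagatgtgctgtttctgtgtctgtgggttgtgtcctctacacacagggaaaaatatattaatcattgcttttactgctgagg
Col1a2 held CCAAT, which 33.8% of the 32851 promoter windows of this length held, and Col3a1 held TATAA, which 22.8% held. These matches describe the letters and were not tested as sites. Col4a1 and Col4a2 are shown by the stretch that joins them. They start on opposite strands of chromosome 8, Col4a2 at 11312805 on the plus strand and Col4a1 at 11312826 on the minus strand, and so share 22 bases by the start sites of the promoter table. The RefSeq gene extent of Col4a1 reaches further, to 11312889, and by the extents both genes share 85 bases. The 30 bases of chr8:11312801-11312830 follow on the plus strand, with the shared bases in capitals.
Col4a1-Col4a2: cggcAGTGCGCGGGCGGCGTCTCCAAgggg

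At day 14 most fibrillar collagen chains were above sorted ES cells, with the largest changes in the chains Col3a1, Col1a2, Col1a1 and Col5a2. Of the 42 chains, 15 were higher and 7 lower in day 14 EBs than in sorted ES cells, where 24.8% of all probe sets were higher and 24.0% lower. The split depended on scaling, with 12 higher and 12 lower after quantile normalisation and 11 higher and 14 lower after centring each array on its median, which shifted the median change of all probe sets by -0.11 (log2). Among the fibrillar chains 6 of 8 were higher, 1 was lower and 1 did not pass, with a median change of 1.04 (log2). Among the basement membrane chains 5 of 16 were higher (Col4a1, Col4a2, Lamb1, Lamb2 and Nid2) and 2 lower (Lama3 and Lamb3), with a median change of 0.18, and among the other collagens 4 of 18 were higher and 4 lower, with a median of -0.01. The median over all probe sets was 0.00. Under both other scalings 6 fibrillar chains were again higher.

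Col3a1 encodes the only chain of type III collagen, which is found with type I in soft connective tissue (chromosome 1, 45311538 to 45349706). Its lowest, median and highest signals were 681, 805 and 1152 in gelatin ES cells, 598, 953 and 1210 in sorted ES cells, 333, 360 and 567.8 in day 4 EBs, 550.5, 1723 and 3493 in day 8 EBs, and 4575, 6686 and 7345 in day 14 EBs. Every day 14 array was above every other array, and every day 4 array was below every ES array. Col3a1 rose by 2.83 ± 0.31 (SE) on the log2 scale in day 14 EBs against sorted ES cells (limma adjusted p = 2.15e-08) and by 2.93 ± 0.31 against gelatin ES cells (1.15e-08). Between gelatin and sorted ES cells its ranges overlapped and the difference of -0.11 ± 0.31 did not pass (adjusted p = 0.84). The other 2 probe sets of Col3a1 gave 3.17 and 2.56 for day 14 EBs against sorted ES cells, both called, but differed for day 4 EBs against gelatin ES cells, where the first did not pass and the second fell by 1.88.

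Col1a2, the alpha 2 chain of type I collagen (chromosome 6, 4505618 to 4541543), was high at both ends of the experiment. Its lowest, median and highest signals were 2394, 3003 and 7152 in gelatin ES cells, 719, 972 and 1488 in sorted ES cells, 450.2, 598 and 1247 in day 4 EBs, 610.1, 1164 and 2068 in day 8 EBs, and 3646, 5736 and 7211 in day 14 EBs. The day 14 arrays overlapped the gelatin ES arrays and no others. Col1a2 was higher by 2.47 ± 0.31 (log2) in day 14 EBs than in sorted ES cells (limma adjusted p = 1.74e-07) and by 1.79 ± 0.31 in gelatin than in sorted ES cells (3.19e-05). Its second probe set did not share this pattern, at -0.11 ± 0.07 for day 14 EBs against sorted ES cells, which did not pass, and -0.31 ± 0.07 for gelatin against sorted ES cells, called lower. The probe sets of Col1a2 thus disagreed.

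Col1a1, the alpha 1 chain of type I collagen (chromosome 11, 94936224 to 94953042), had lowest, median and highest signals of 1471, 2545 and 3004 in gelatin ES cells, 752, 816 and 914 in sorted ES cells, 466.1, 543 and 684 in day 4 EBs, 748, 1303 and 2235 in day 8 EBs, and 2222, 2719 and 3462 in day 14 EBs. All day 14 and all gelatin ES arrays were above all sorted ES arrays. Its change was 1.75 ± 0.20 (log2) in day 14 EBs against sorted ES cells (limma adjusted p = 3.66e-08) and 1.51 ± 0.20 in gelatin against sorted ES cells (6.26e-07). A second, dimmer probe set was called in the same directions with 0.77 ± 0.14 and 0.44 ± 0.14, but did not pass between day 4 and day 8 (0.19 ± 0.13).

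Col5a2, a chain of the type V collagen that initiates fibrils, lies beside Col3a1 on chromosome 1 (45374331 to 45503282) but was highest on gelatin. Its lowest, median and highest signals were 2170, 3252 and 7744 in gelatin ES cells, 333, 646 and 818 in sorted ES cells, 162.5, 384 and 948 in day 4 EBs, 214, 316 and 791 in day 8 EBs, and 1120, 1897 and 2113 in day 14 EBs. The gelatin ES arrays were all above the day 14 arrays, and these were all above the rest. Col5a2 was higher by 1.53 ± 0.37 (log2) in day 14 EBs than in sorted ES cells (limma adjusted p = 0.00115) and fell by 1.12 ± 0.37 in day 14 EBs against gelatin ES cells (0.0149). In gelatin against sorted ES cells it was higher by 2.65 ± 0.37 (1.76e-06).

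The remaining fibrillar chains moved little. Col5a1, the partner of Col5a2, averaged 1640 ± 208 at day 14, against 1136 ± 76.5 in sorted ES cells, a change of 0.52 ± 0.08 (log2, limma adjusted p = 1.03e-05), although its second probe set did not pass (0.13 ± 0.07). Col11a1, a minor chain of cartilage fibrils, averaged 397 ± 60.1 at day 14, against 269 ± 14.1 in sorted ES cells, a change of 0.55 ± 0.08 (5.31e-06). For both genes no day 14 array overlapped a sorted ES array. Col11a2, also a cartilage chain, did not pass, at 311 ± 20.5 in day 14 EBs and 314 ± 15.2 in sorted ES cells (adjusted p = 0.822), which leaves a difference of -0.01 ± 0.04. Col2a1, the main collagen of cartilage, was lower at day 14, with 316 ± 23.2 against 375 ± 24.2 in sorted ES cells, a fall of 0.25 ± 0.06 (0.00157). The 3 measured of 5 listed cartilage markers summed to 441 to 492 in day 14 EBs and 436 to 560.1 in sorted ES cells. Of these 3 none was higher and 2 were lower in day 14 EBs than in sorted ES cells. Of all probe sets 24.8% were higher and 24.0% lower there. Against gelatin ES cells 1 was higher and 1 lower, where the shares were 21.8% and 23.2%.

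**Figure D2:**
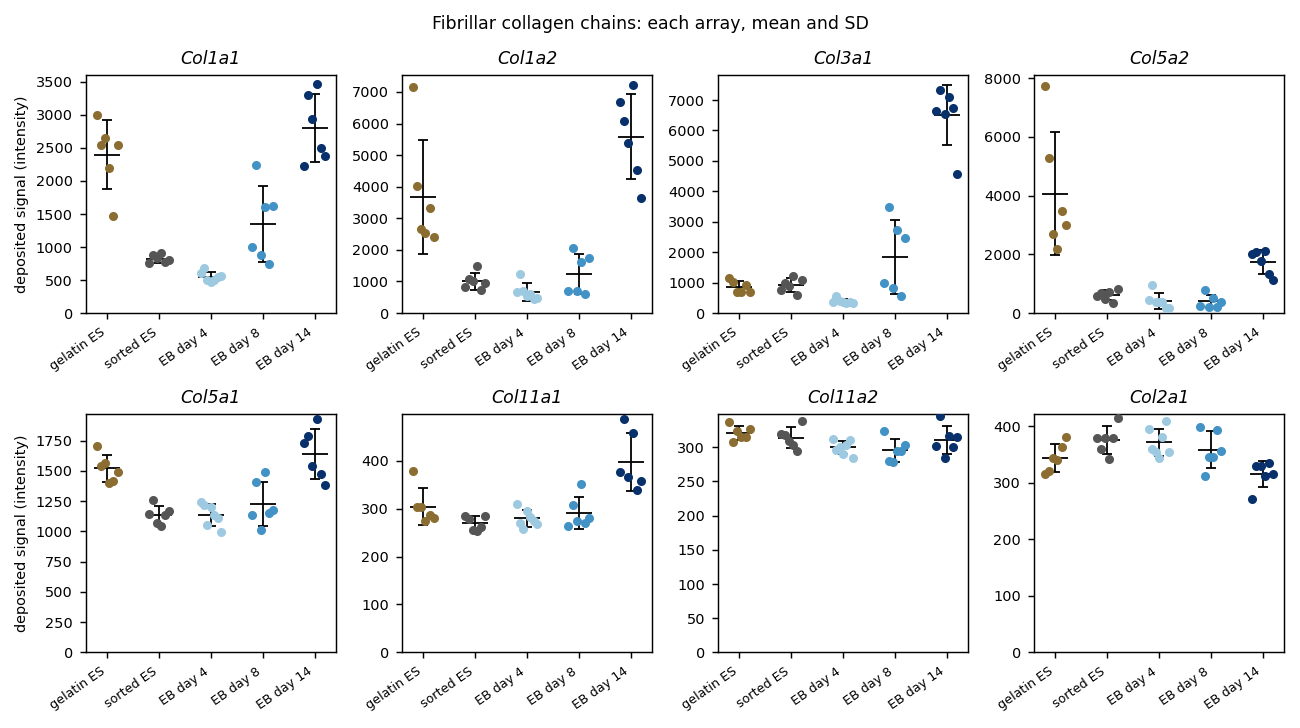
Deposited signal (vertical axes, each from 0) of the 8 fibrillar chains in each group. Points are arrays, and the black bar and whiskers are the mean and SD (n = 6, or 7 at day 4). Col1a1, Col1a2 and Col5a2 are high in gelatin ES cells and at day 14, whereas Col3a1 averages 6493 at day 14 and 859 in gelatin ES cells.

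Against gelatin ES cells, the cells the EBs were made from, the median change of the fibrillar chains in day 14 EBs was 0.17 (log2). Of the 42 chains 12 were higher and 10 lower, where 21.8% of all probe sets were higher and 23.2% lower. Of the fibrillar chains Col3a1 and Col11a1 were higher and Col5a2 lower, and 5 did not pass. Col1a2 missed the threshold at 0.68 ± 0.31 (log2, limma adjusted p = 0.073) and passed when gelatin array 1, which held its highest gelatin signal, was left out (0.89, adjusted p = 0.0158). Leaving out the highest gelatin array raises this difference by construction, so the second value is no separate support for a rise. Of the basement membrane chains 5 were higher (Col4a1, Col4a2, Col4a5, Lama1 and Nid2) and 5 lower (Lama2, Lama3, Lama5, Lamb2 and Nid1).

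Between both kinds of day 0 cells, gelatin ES cells carried more of several chains. Of the 42 chains 13 were higher and 8 lower in gelatin than in sorted ES cells, where 21.4% of all probe sets were higher and 18.2% lower. After quantile normalisation the split was 14 higher and 12 lower, and after median centring 13 higher and 15 lower. The fibrillar chains Col1a1, Col1a2, Col5a1 and Col5a2 were higher and none was lower. Of the 16 basement membrane chains 6 were higher (Col4a1, Lama2, Lama5, Lamb1, Lamb2 and Nid1) and 3 lower (Col4a4, Lama4 and Nid2).

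Fibroblast markers were not alike in the groups with high fibrillar signals. The 13 measured of 14 listed markers, which name feeder cells among other fibroblasts, summed to 18750 to 30680 in gelatin ES cells, 11280 to 14510 in sorted ES cells, 7034 to 11910 in day 4 EBs, 6547 to 15170 in day 8 EBs and 18460 to 27470 in day 14 EBs. In gelatin ES cells 5 of the 13 were higher than in sorted ES cells and 1 was lower, where 21.4% of all probe sets were higher and 18.2% lower. Thy1, a surface marker of fibroblasts, averaged 1747 in gelatin ES cells, 813 in sorted ES cells and 228 at day 14, and Tagln, an actin-binding protein, 9548, 2544 and 817 in the same groups. Dcn and Lum, proteoglycans that bind collagen fibrils, ran the other way, with Dcn at 391 in gelatin ES cells, 514 in sorted ES cells and 4630 at day 14, and Lum at 224, 343 and 5278. Prrx1 averaged under the floor of 59.6, to which lower signals were raised, in every group. The part of fibroblasts, feeders included, in the collagen signals was not tested.

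At day 4 most fibrillar chains were below the gelatin ES cells that the EBs were made from. Of the 42 chains 2 were higher and 14 lower in day 4 EBs than in gelatin ES cells, where 7.95% of all probe sets were higher and 16.3% lower. Of the 8 fibrillar chains 5 fell, with a median change of -0.77 (log2) beside -0.01 over all probe sets. Col5a2 fell by 3.38 ± 0.36, Col1a2 by 2.43 ± 0.29, Col1a1 by 2.10 ± 0.19, Col3a1 by 1.12 ± 0.30 and Col5a1 by 0.42 ± 0.08, with limma adjusted p values between 2.42e-09 and 0.0064. For these 5 genes no day 4 array overlapped a gelatin ES array. Without day 4 arrays 6 and 7 the same 5 genes were called, at -2.97 for Col5a2, -2.25 for Col1a2, -2.11 for Col1a1 and -1.06 for Col3a1. Among basement membrane chains 7 of 16 fell and Nid2 rose, by 0.67 ± 0.17. Col4a1 fell by 1.66 ± 0.27, Nid1 by 1.60 ± 0.29, Lamb1 by 1.27 ± 0.18, Lamb2 by 0.91 ± 0.11, Lama2 by 0.61 ± 0.07 and Lama5 by 0.60 ± 0.12. Without day 4 arrays 6 and 7 the changes were -2.12 for Col4a1, -1.34 for Nid1 and 0.48 for Nid2 (adjusted p = 0.0324), all still called. The last of the 7, Lamc1, at -0.49 ± 0.16 (0.0254), no longer passed without day 4 arrays 6 and 7 (-0.44, adjusted p = 0.0668), and its second probe set did not pass. Of the other collagens 1 was higher and 2 were lower.

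Between day 4 and day 8 a few chains rose and most did not pass. Of the 42 chains 8 were higher and 2 lower in day 8 than in day 4 EBs, where 11.9% of all probe sets were higher and 12.6% lower. Col3a1 rose by 1.94 ± 0.30 (log2, limma adjusted p = 2.31e-05) and Col1a1 by 1.19 ± 0.19 (3.86e-05). Among basement membrane chains Col4a1, Col4a2 and Nid2 rose and Lama3 fell. The rise of Col1a2 by 0.81 ± 0.29 passed narrowly (0.0455). The day 8 arrays, however, did not form 1 cluster for these genes. On day 8 arrays 1 to 6 Col3a1 was at 984, 3493, 835, 2726, 550.5 and 2463, and Col1a1 at 998, 2235, 873, 1608, 748 and 1626. Arrays 2, 4 and 6 were the 3 highest for both genes, and they were the arrays with low Zfp42. Lum, at 463, 3036, 305, 1935, 276 and 1591, and the matricellular protein gene Postn, at 527, 2569, 285, 1073, 240.4 and 1098, were highest on the same 3 arrays. Of the 13 measured fibroblast markers 6 had their 3 highest day 8 signals on arrays 2, 4 and 6, and 3 had their 3 lowest there. Mfap5, a microfibril protein gene among these 3, was at 175, 133, 199, 116, 214 and 135. The split was not particular to fibroblast markers. Arrays 2, 4 and 6 were also the 3 highest for 4 of 6 visceral endoderm, 3 of 5 endothelial and 2 of 10 primitive and parietal endoderm markers. They were the 3 lowest for all 6 markers of undifferentiated cells. The share of all probe sets with either order was not counted. Without day 8 arrays 2 and 4 Col3a1 changed by 1.41 (adjusted p = 0.000407) and Col1a1 by 0.89 (0.000758), whereas Col1a2, at 0.44, no longer passed (0.315). Array 6 stayed in these fits, and of arrays 1, 3 and 5 the last, at 550.5 for Col3a1, was below the highest day 4 array, at 567.8. Without day 4 arrays 6 and 7 Col1a2 did not pass either (0.62, adjusted p = 0.132). The changes of Col4a2, Nid2 and Lama3 were 0.81, 0.80 and -0.38 without those day 4 arrays and 0.75, 0.76 and -0.30 without day 8 arrays 2 and 4, all called.

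Between day 8 and day 14 the fibrillar chains rose again, now with Col5a2. Of the 42 chains 12 were higher and 2 lower in day 14 than in day 8 EBs, where 20.1% of all probe sets were higher and 11.9% lower. The split was 11 and 7 after quantile normalisation and 10 and 7 after median centring. Of the 8 fibrillar chains 6 rose and Col2a1 fell, with a median change of 0.79 (log2) beside 0.03 over all probe sets. Col1a2 rose by 2.30 ± 0.31 (limma adjusted p = 3.42e-06), Col5a2 by 2.27 ± 0.37 (4.49e-05), Col3a1 by 2.11 ± 0.31 (1.25e-05) and Col1a1 by 1.14 ± 0.20 (8.5e-05). Col11a1 and Col5a1 rose by 0.44 and 0.42, and of the basement membrane chains Lamb1, Col4a2 and Col4a5 rose. No day 14 array overlapped a day 8 array for Col1a2, Col3a1 or Col5a2, while for Col1a1 the highest day 8 array exceeded the lowest day 14 array. Without day 8 arrays 2 and 4 the changes were 2.67 for Col1a2, 2.71 for Col5a2, 2.64 for Col3a1 and 1.45 for Col1a1, all called. Lamb1 (1.39) and Col4a2 (0.45) were called as well, and Col4a5 no longer passed (0.17, adjusted p = 0.055). For Col1a2, Col5a2, Col3a1 and Col1a1 day 8 arrays 2, 4 and 6 were the highest. Leaving out arrays 2 and 4 raised these changes by construction.

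**Figure D3:**
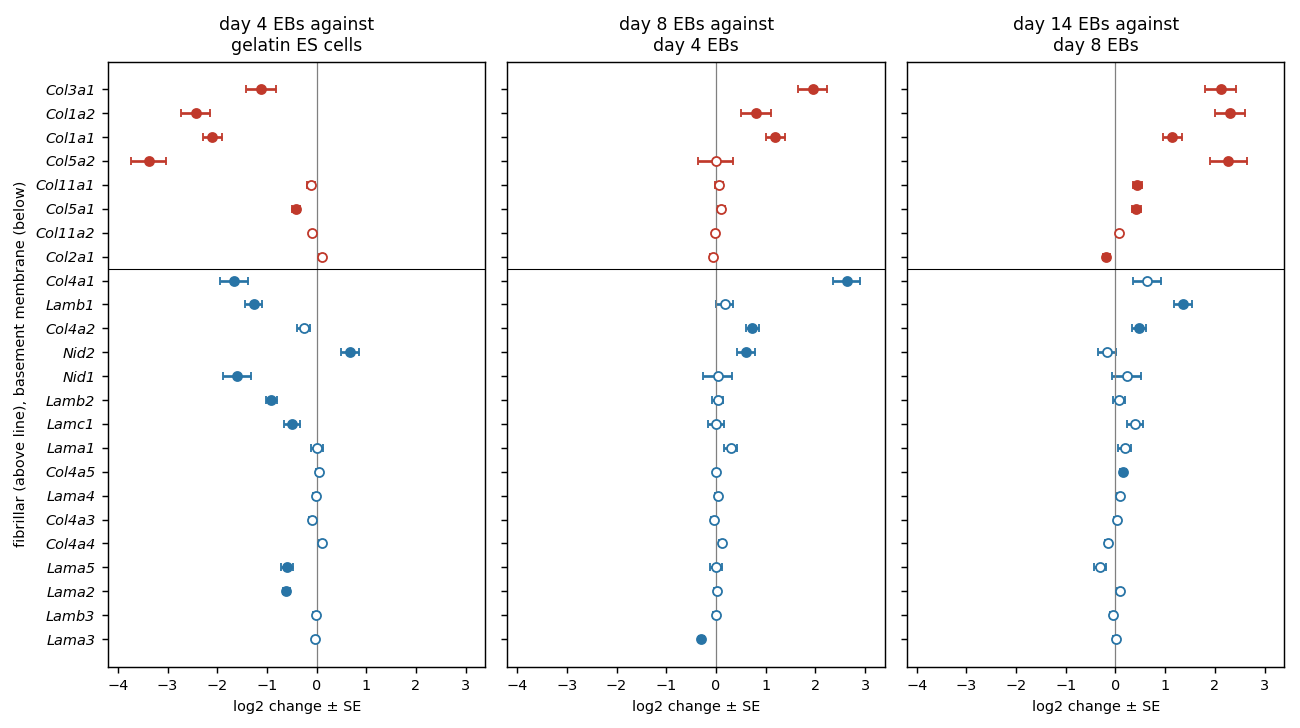
Log2 change with SE (horizontal axes) of the 8 fibrillar chains (red) and 16 basement membrane chains (blue) in 3 successive comparisons. Filled points passed an adjusted p of 0.05 in limma. Col4a1 moves most at day 8 and Col1a2 and Col5a2 rise most between day 8 and day 14.

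Among the basement membrane chains the pair Col4a1 and Col4a2, which encode the most widespread type IV collagen, rose by day 8. Col4a1 (chromosome 8, 11198423 to 11312889) had lowest, median and highest signals of 1921, 2617 and 3482 in gelatin ES cells, 522, 610.5 and 699 in sorted ES cells, 470.2, 589 and 2059 in day 4 EBs, 4191, 5061 and 5446 in day 8 EBs, and 4942, 8727 and 10740 in day 14 EBs. Every day 8 and day 14 array was above every ES and day 4 array. It rose by 2.63 ± 0.27 (log2) in day 8 against day 4 EBs (limma adjusted p = 6.22e-08) and was higher by 3.67 ± 0.28 in day 14 EBs than in sorted ES cells (4.02e-11), the largest change of any of the 42 chains in that comparison. The further difference of 0.63 ± 0.28 between day 14 and day 8 EBs did not pass (0.0901), although it did with the replicate number as a block (0.0341), in a fit of these 2 groups alone (0.0363) and with array weights (0.00637). In gelatin ES cells Col4a1 was 2.07 ± 0.28 above sorted ES cells (1.28e-06).

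Col4a1 was even across the day 8 arrays on which the fibrillar chains differed. On day 8 arrays 1 to 6 it was at 4191, 5446, 5403, 4952, 5170 and 4756. Its scatter lay elsewhere, on day 4 arrays 6 and 7, at 1521 and 2059, with 1020 on array 2 and 470.2 to 589 on the other 4. Without day 4 arrays 6 and 7 the rise to day 8 was 3.08 (log2, adjusted p = 7.44e-12). At day 14 arrays 1 and 5, at 5087 and 4942, were below the other 4, which lay between 7448 and 10740.

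Col4a2 (chromosome 8, 11312805 to 11449287) followed its neighbour with smaller changes. Its lowest, median and highest signals were 847, 986 and 1144 in gelatin ES cells, 700.1, 897 and 1032 in sorted ES cells, 748, 801.5 and 1073 in day 4 EBs, 1256, 1401 and 1459 in day 8 EBs, and 1287, 2080 and 2743 in day 14 EBs. All day 8 and day 14 arrays were above all earlier arrays. Col4a2 rose by 0.73 ± 0.13 (log2) in day 8 against day 4 EBs (limma adjusted p = 0.000174) and by 0.47 ± 0.14 in day 14 against day 8 EBs (0.0094), which in a fit of these 2 groups alone did not pass (0.0596). It did not pass between gelatin and sorted ES cells, at 0.19 ± 0.14 (0.278), where Col4a1 was called. The difference between both genes there was not tested.

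The other type IV chains, which are known from specialised membranes such as that of the kidney, had few calls. Col4a3 averaged 81.7 ± 6.55 at day 14, against 86.1 ± 9.44 in sorted ES cells, and passed in no comparison. Col4a4 averaged 335 ± 24.6 at day 14, against 365 ± 22.6 in sorted ES cells, and was called once, lower by 0.19 (log2) in gelatin than in sorted ES cells. Col4a5 averaged 402 ± 24.2 at day 14, against 349.8 ± 31.8 in gelatin ES cells, a rise of 0.21 ± 0.06 (limma adjusted p = 0.0057), and its rise of 0.15 between day 8 and day 14 passed narrowly (0.0489), and did not pass under either other scaling or with any of 10 single arrays left out.

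**Figure D4:**
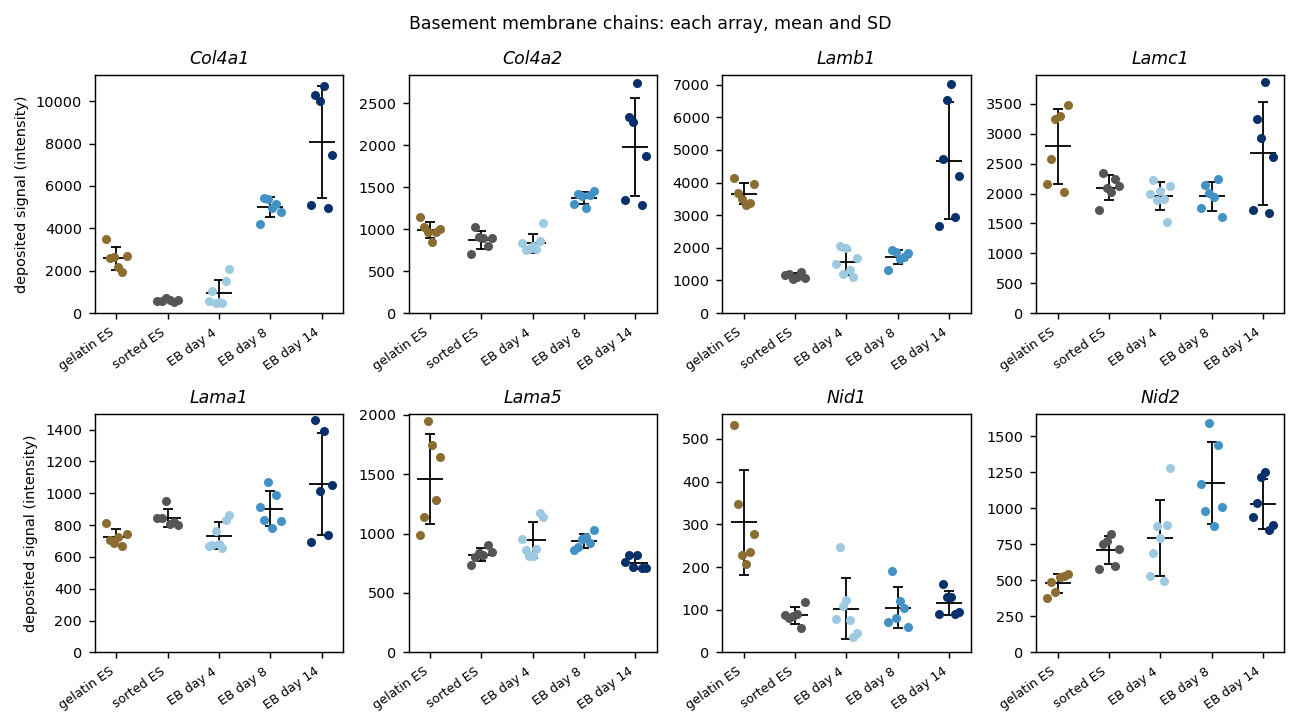
Deposited signal (vertical axes, each from 0) of 8 basement membrane chains in each group. Points are arrays, and the black bar and whiskers are the mean and SD (n = 6, or 7 at day 4). Col4a1 and Col4a2 step up at day 8, Lamb1 is high in gelatin ES cells and at day 14, and Nid1 and Nid2 run opposite ways in gelatin ES cells.

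The main laminin of the early embryo is built from the products of Lama1, Lamb1 and Lamc1, and only Lamb1 passed in day 14 EBs against sorted ES cells. Lamb1 (chromosome 12, 31265146 to 31329644) had lowest, median and highest signals of 3312, 3592 and 4148 in gelatin ES cells, 1045, 1136 and 1274 in sorted ES cells, 1095, 1514 and 2055 in day 4 EBs, 1331, 1777 and 1924 in day 8 EBs, and 2655, 4464 and 7010 in day 14 EBs. Day 14 and gelatin ES arrays overlapped each other and were all above the other groups. Lamb1 rose by 1.94 ± 0.18 (log2) in day 14 EBs against sorted ES cells (limma adjusted p = 1.46e-09) and by 1.36 ± 0.18 against day 8 EBs (4.22e-06), and was 1.68 ± 0.18 higher in gelatin than in sorted ES cells (3.11e-08). Its second probe set gave 2.12, 1.33 and 1.66 for the same comparisons, all called. Between day 4 and day 8, when Col4a1 rose, Lamb1 did not pass (0.17 ± 0.18).

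Lamc1, the common gamma chain, averaged 2674 ± 864 at day 14, against 2096 ± 212 in sorted ES cells, and Lama1, the early alpha chain, 1057 ± 319 at day 14, against 843 ± 56.9 in sorted ES cells. Neither difference passed, at 0.29 ± 0.17 (log2, limma adjusted p = 0.154) for Lamc1 and 0.27 ± 0.13 (0.0886) for Lama1, and the groups overlapped for both. The second probe set of Lamc1 did not pass either, at -0.18 ± 0.08 (limma adjusted p = 0.0839). Against gelatin ES cells Lama1 was higher by 0.49 ± 0.13 (0.00315). The day 14 spread followed 2 arrays. Over day 14 arrays 1 to 6 Lamc1 was at 1727, 3245, 2924, 3873, 1671 and 2605, Lama1 at 695, 1459, 1014, 1390, 738 and 1050, and Lamb1 at 2655, 4723, 6513, 7010, 2935 and 4205. Arrays 1 and 5 were the lowest for all 3 laminin chains, as they were for Col4a1 and Col4a2, but not for Col3a1, at 6645 and 6727 on them. With array 1 left out both Lamc1 (0.40, adjusted p = 0.0433) and Lama1 (0.38, 0.0113) passed against sorted ES cells, and likewise with array 5 left out (0.41, 0.0359 and 0.37, 0.0204). Since these arrays were the lowest for both genes, leaving either out raises the day 14 mean by construction. These calls are therefore no separate support for a rise. Of the 10 measured markers of primitive and parietal endoderm, arrays 1 and 5 were the lowest pair for 4 (Sparc, Sox7, Thbd and Plat) and the highest pair for 1 (Gata6), and they were the lowest pair for none of the 6 measured visceral endoderm markers. Sparc, a matrix protein abundant in parietal endoderm, was at 1531, 2788, 2460, 2612, 1382 and 2148 on these arrays, whereas Gata6, an endoderm transcription factor, was at 1087, 847, 943, 929, 947 and 937. Arrays 1 and 5 were also the lowest pair for 5 of the 18 other collagen chains and the highest pair for 1. The share of all probe sets with either order was not counted. The part of endoderm content in the day 14 spread of the laminin chains was not tested.

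Markers of endoderm were read beside the type IV collagen chains, and they did not all move one way. The 10 markers of primitive and parietal endoderm summed to 9937 to 11730 in gelatin ES cells, 7311 to 8519 in sorted ES cells, 7024 to 11240 in day 4 EBs, 12590 to 17080 in day 8 EBs and 15310 to 20880 in day 14 EBs. In day 8 against day 4 EBs 6 of the 10 were higher and none lower, where 11.9% of all probe sets were higher and 12.6% lower. In day 14 EBs against sorted ES cells 6 were higher and 2 lower, where the shares were 24.8% and 24.0%. In day 14 against day 8 EBs 2 were higher, where 20.1% of all probe sets were. In day 4 EBs against gelatin ES cells, where Col4a1 fell, 2 were lower and 8 did not pass, beside 16.3% of all probe sets lower. Dab2, an adaptor protein of endoderm, averaged 721 in gelatin ES cells, 171 in sorted ES cells, 797 in day 4 EBs, 4634 in day 8 EBs and 5914 in day 14 EBs, and Pth1r, a parietal endoderm receptor, 136, 129, 193, 711 and 1343. On day 4 arrays 6 and 7, the highest for Col4a1, Dab2 was at 1361 and 2798, against 235 to 351 on the other day 4 arrays. Thbd, a surface receptor of parietal endoderm, averaged 913, 229, 136, 78.1 and 90.6 in the same 5 groups, and Gata4, a transcription factor, 755.5, 828, 794, 777 and 722. Both were lower in day 14 EBs than in sorted ES cells. The list was also mixed on day 4 arrays 6 and 7. Pth1r, at 273 and 343, was above the other day 4 arrays, at 123 to 162.5. Thbd, at 34.8 and 45.4, was below them, at 79.8 to 413. Sparc, at 1229 and 1289, and Gata4, at 795 and 692, did not exceed the highest of the others, at 1341 and 893. The 6 measured of 7 visceral endoderm markers summed to 1404 to 4251 in day 4 EBs and 11770 to 23870 in day 8 EBs, and all 6 were higher in day 8 EBs. The part of endoderm content in the collagen IV rise was not tested.

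The remaining laminin chains were highest on gelatin or changed little. Lama5, the broadly expressed later alpha chain, averaged 1456 ± 378 in gelatin ES cells, against 823 ± 55.0 in sorted ES cells, a difference of 0.78 ± 0.12 (log2, limma adjusted p = 7.96e-06), and fell by 0.91 ± 0.12 in day 14 EBs against gelatin ES cells (5.68e-07). Lamb2, a beta chain of nerve, muscle and kidney membranes, was higher by 1.17 ± 0.12 in gelatin than in sorted ES cells (6.37e-09), with 399.6 ± 62.1 against 177 ± 16.3, and Lama2, the alpha chain of muscle, by 0.37 ± 0.07 (0.000117). None of the gelatin ES arrays overlapped a sorted ES array for these 3 genes. On gelatin arrays 1 to 6 Lama5 was at 984, 1135, 1945, 1748, 1284 and 1640, and the Gapdh 3' to 5' ratio at 4.04, 3.94, 6.67, 6.31, 3.48 and 6.85. Arrays 3, 4 and 6 were the highest in both, and the part of RNA quality was not tested.

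Lama3, an alpha chain of skin, averaged 219 ± 11.6 in gelatin ES cells, 232 ± 10.6 in sorted ES cells, 216 ± 23.6 in day 4 EBs, 175.5 ± 8.42 in day 8 EBs and 176 ± 9.57 in day 14 EBs. It fell by 0.40 ± 0.06 (log2) in day 14 EBs against sorted ES cells (limma adjusted p = 1.39e-06), with no overlap between these groups. Its partner in skin, Lamb3, was lower by 0.17 ± 0.06 in the same comparison (0.0288), a call lost with any of 5 single arrays left out. The second probe set of Lamb3 did not pass there (-0.11 ± 0.06, limma adjusted p = 0.135). Lama4, an alpha chain of vessel walls, averaged 874 ± 59.0 at day 14, against 917 ± 39.3 in sorted ES cells, which missed the threshold (0.334). A second, dimmer probe set of Lama4 was called lower there (-0.46 ± 0.10, limma adjusted p = 0.000535), so its probe sets disagreed.

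The nidogens ran opposite ways in gelatin ES cells. Nid1 had lowest, median and highest signals of 206, 256 and 534 in gelatin ES cells, 56.4, 87.0 and 118 in sorted ES cells, 35.7, 77.4 and 247 in day 4 EBs, 60.5, 92.9 and 191 in day 8 EBs, and 89.8, 112 and 159.9 in day 14 EBs. It was dim, with 3 values under the floor of 59.6, and all gelatin ES arrays were above all sorted ES, day 8 and day 14 arrays. Nid1 was higher by 1.75 ± 0.30 (log2) in gelatin than in sorted ES cells (limma adjusted p = 3.41e-05) and fell by 1.60 ± 0.29 in day 4 EBs against gelatin ES cells (0.000134). Nid2 had lowest, median and highest signals of 375, 507 and 542 in gelatin ES cells, 578.5, 736 and 824 in sorted ES cells, 498, 797 and 1279 in day 4 EBs, 875.5, 1088 and 1596 in day 8 EBs, and 849, 987.5 and 1255 in day 14 EBs. All gelatin ES arrays were below all sorted ES, day 8 and day 14 arrays. The change of Nid2 was -0.56 ± 0.18 in gelatin against sorted ES cells (0.0133) and 1.10 ± 0.18 in day 14 EBs against gelatin ES cells (1.14e-05).

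Set side by side relative to sorted ES cells, both classes parted at day 14. On each array the median log2 signal of the 8 fibrillar chains and of the 16 basement membrane chains was taken relative to sorted ES cells. The fibrillar median averaged 0.29 ± 0.14 (SD) in gelatin ES cells, 0.03 ± 0.08 in sorted ES cells, -0.28 ± 0.12 in day 4 EBs, 0.10 ± 0.23 in day 8 EBs and 1.03 ± 0.27 in day 14 EBs. The basement membrane median averaged 0.07 ± 0.08, 0.00 ± 0.03, -0.07 ± 0.06, 0.03 ± 0.06 and 0.12 ± 0.16 in the same groups. Their difference lay between 0.67 and 1.10 on the day 14 arrays, and between -0.38 and 0.47 on all other arrays. At day 8 it ranged between -0.24 and 0.44. Against gelatin ES cells the median change in day 14 EBs was 0.17 (log2) for the fibrillar and 0.005 for the basement membrane chains. The size of the parting thus depended on the day 0 cells used as the reference. These medians describe the lists and carry no test. The basement membrane median hides the rise of Col4a1, since most of the 16 chains did not pass.

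**Figure D5:**
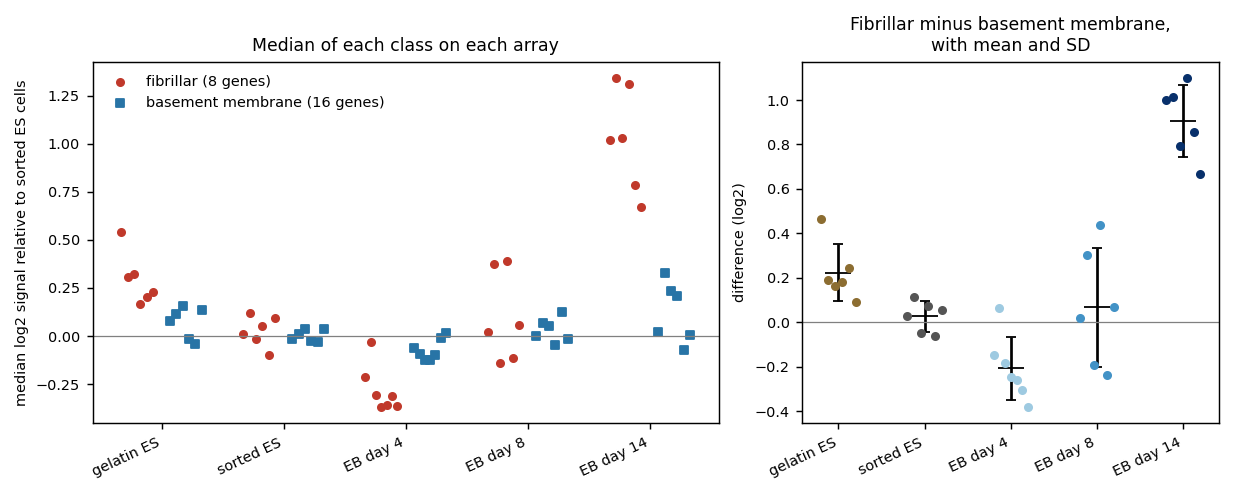
Left, median log2 signal relative to sorted ES cells of the fibrillar (red circles) and basement membrane chains (blue squares) on each array, by group. Right, fibrillar minus basement membrane median on each array, with the mean and SD, which is 0.90 ± 0.16 at day 14 and -0.21 ± 0.14 at day 4.

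None of the 18 other collagen chains changed by as much as 1 (log2) in any comparison. Their changes lay between -0.73 and 0.70, and both extremes, chosen after their values were seen, were day 14 EBs against gelatin ES cells. Col13a1, a transmembrane collagen, averaged 502 ± 37.5 at day 14, against 309.5 ± 19.5 in gelatin ES cells (limma adjusted p = 1.07e-10). Its second probe set did not pass there and was called lower, not higher, against sorted ES cells. Col8a1, a collagen of vessel and eye membranes, averaged 215 ± 15.6 at day 14, against 364 ± 92.5 in gelatin ES cells (1.9e-07). The chains of type VI collagen, which forms beaded filaments, changed little. In day 14 EBs against sorted ES cells Col6a2 dropped by 0.49 (log2) and Col6a1 and Col6a3 did not pass. Col6a1 was higher by 0.16 ± 0.06 in day 14 EBs than in gelatin ES cells (limma adjusted p = 0.0257), and Col6a3 by 0.26 ± 0.06 in day 14 than in day 8 EBs (0.00344).

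A collagen chain is modified and folded in the cell and crosslinked outside it, and 4 genes of these steps are described. Of 14 measured enzymes and chaperones 6 were higher and 4 lower in day 14 EBs than in sorted ES cells, where 24.8% of all probe sets were higher and 24.0% lower. Against gelatin ES cells 6 were higher and 6 lower, where the shares were 21.8% and 23.2%. P4ha1, a subunit of the prolyl hydroxylase that stabilises the helix, averaged 786.5 ± 112 in sorted ES cells, 3280 ± 277 at day 8 and 5096 ± 742 at day 14. Serpinh1, the collagen chaperone of the endoplasmic reticulum, averaged 7168 ± 590.2 at day 14, against 2250 ± 304 in sorted ES cells. Both were called at day 8 against day 4, with changes of 2.10 ± 0.35 (log2, limma adjusted p = 6.7e-05) for P4ha1 and 1.23 ± 0.18 (1.5e-05) for Serpinh1. Without day 4 arrays 6 and 7 these were 2.83 and 1.51, and without day 8 arrays 2 and 4 they were 2.08 and 1.10, all called. P4ha1 did not pass in day 4 EBs against gelatin ES cells (-0.14, adjusted p = 0.846) but fell by 0.87 when day 4 arrays 6 and 7 were left out (8.95e-05). The crosslinking enzymes had their highest signals on gelatin. Lox, lysyl oxidase, averaged 7284 ± 1781 in gelatin ES cells, 1482 ± 421 in sorted ES cells, 581.5 ± 502 at day 4, 167 ± 87.2 at day 8 and 645 ± 247 at day 14, and Loxl1, its paralogue, 513 ± 105, 216 ± 41.4, 139 ± 29.7, 136 ± 11.6 and 168 ± 23.3. In day 14 EBs against gelatin ES cells Lox fell by 3.55 ± 0.36 (6.05e-09) and Loxl1 by 1.60 ± 0.14 (2.8e-10).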

How the data were processed

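RNA of 31 samples was measured on MgU74Av2 arrays, whose number limits the precision. The authors normalised and modelled the scanned arrays with dChip, and the deposited values are 1 linear signal intensity per probe set and array (12488 probe sets). The dChip version and model type are not given in the sources used here. No per-sample column was left unused.

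From these values, 66 control probe sets were left out, signals were floored at 59.6 (the 5th percentile) and taken to log2. A linear model over 5 groups was fitted to 12422 probe sets with limma 3.58.1 in R 4.3.3 (empirical Bayes, Benjamini-Hochberg adjustment per comparison), and plots were drawn with matplotlib 3.10.9. The methods describe the arrays of a time point as biological samples, and p-values measure the spread between these samples. The fitting code was tested on simulated data with known changes.

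The platform annotation gave 1 symbol to 10833 probe sets, several to 396 and none to 1193. Positions are those of RefSeq on GRCm38.p6. Every fibrillar and basement membrane chain is named, other collagens only past a log2 change of 1 or where said otherwise, and up to 4 genes of each list of collagen enzymes, matrix receptors and proteases. The members and lists were chosen with earlier results of these data known. Neither the labels nor the methods say whether replicate numbers pair samples, and the main fit did not pair them. Alternatives covered quantile normalisation, median centring, 2 other floors, omission of dim probe sets, array weights, a block for the replicate number, pairwise fits, the mean over a gene's probe sets and leaving out each array.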

Additional observations from a re-analysis of the deposited data

Results flagged for a closer look

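Within each group, 120 sets of array signals of the 24 fibrillar and basement membrane genes were searched for 1 array far from the others, and 13 sets in 10 genes had one. Chance alone flags about 1 in 20 such groups. Day 4 array 2 stood far above the other day 4 arrays for 4 genes, with Col1a2 at 1247 (next 691), Col3a1 at 567.8 (next 410), Col5a2 at 948.2 (next 439.6) and Nid1 at 247.2 (next 123). Gelatin array 1 was high for Col1a2, at 7152 (next 4027), and for Col11a1, at 378.7 (next 304). Day 14 array 6 was low for Col3a1, at 4575 (next 6557), and day 14 array 1 for Col2a1, at 272.1 (next 312). Col4a2 was high on day 4 array 7, at 1073 (next 863), and Col4a4 on day 4 array 6, at 426.4 (next 346), and on day 14 array 3, at 383 (next 335). Lama1 was high on sorted ES array 3, at 953.5 (next 842), and Lama4 on day 8 array 2, at 983.3 (next 823).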

How the results depend on the processing

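Of 105 gene-level calls among the 42 chains, 78 were kept under every alternative other than leaving out 1 or 2 named arrays, 27 were lost under at least 1 of these and none reversed. Counts of higher chains moved by over 1.5 times in 2 cases: day 8 against day 4 (8) became 5 in a fit of 2 groups only, and day 4 against gelatin ES cells (2) became 1 with dim probe sets left out. Counts of lower chains moved more. For day 14 EBs against sorted ES cells (7) they were 12 after quantile normalisation, 14 after median centring and 3 with dim probe sets left out, and for day 14 EBs against gelatin ES cells (10) 3 with dim probe sets left out. For gelatin against sorted ES cells (8) they were 15 after median centring and 5 to 9 with 1 array left out, the 5 without gelatin array 6. For day 8 against day 4 (2) they were 1 after quantile normalisation, with the floor at the 25th percentile, with dim probe sets left out and with probe set means, and 1 to 2 with 1 array left out, the 1 without day 4 array 3. For day 14 against day 8 (2) they were 7 after quantile normalisation, 7 after median centring, 6 with array weights and 1 to 4 with 1 array left out, with 1 without day 8 array 1, day 8 array 5 or day 14 array 1 and 4 without day 8 array 2. Leaving out day 8 arrays 2 and 4, chosen after seeing the data like the same step for day 4 arrays 6 and 7, gave 4. The counts with dim probe sets left out fall partly by construction. That fit omitted the dimmest 40% of probe sets, and the chains among them counted as not called. The cause of the other shifts was not tested. Dim signals limit several chains, Nid1 and Col4a3 most.

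With the replicate number as a replicate block, 14 chains were higher and 7 lower in day 14 EBs than in sorted ES cells, 12 and 9 against gelatin ES cells, and 14 and 3 against day 8. They were 14 and 9 in gelatin against sorted ES cells, 2 and 14 in day 4 EBs against gelatin ES cells, and 7 and 2 in day 8 against day 4. Same-numbered arrays correlated at -0.35 to 0.49 over 60 pairs, 23 of them over 0.1, and 7 of 31 arrays correlated best with their own number.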

Other observations

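Matrix receptors, basement membrane proteoglycans and proteases were measured beside the chains. Of 11 receptors and proteoglycans 1 was higher and 2 were lower in day 14 EBs than in sorted ES cells, where 24.8% of all probe sets were higher and 24.0% lower. Against gelatin ES cells 2 were higher and 5 lower, where the shares were 21.8% and 23.2%. Those 2 were the proteoglycans Hspg2 (0.19, log2) and Agrn (0.29), so that no receptor was higher (limma). Itgb1, the common beta chain of matrix-binding integrins, averaged 8627 ± 837 at day 14, against 15460 ± 1096 in gelatin ES cells, a change of -0.84 ± 0.11 (log2, limma adjusted p = 3.93e-07). Itga3, a laminin-binding integrin chain, fell by 0.75 and Dag1, the laminin receptor dystroglycan, by 0.39 in the same comparison. Ddr1, a collagen-binding kinase, averaged 1525 ± 196 at day 14, against 945 ± 78.2 in sorted ES cells, and was lower by 0.44 in day 14 EBs than in gelatin ES cells.

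Read against the same shares of all probe sets, of 10 proteases and inhibitors none was higher and 4 were lower in day 14 EBs than in gelatin ES cells (limma), and 1 was higher and 3 were lower than in sorted ES cells. The protease inhibitors Timp3 and Timp1 averaged 1222 ± 219 and 1578 ± 77.0 at day 14, against 6276 ± 869 and 7047 ± 1717 in gelatin ES cells. Mmp3, a matrix-degrading protease, fell by 2.34 ± 0.44 (log2, adjusted p = 7.52e-05) and Mmp14, a membrane-bound collagenase, changed by 0.39 ± 0.09 (0.000585) in day 14 EBs against sorted ES cells.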
